A study of Mus musculus with 12 samples.

Results

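The effect of pneumonectomy on one sorted fibroblast gate of the mouse lung was examined, by comparing arrays of GFP-bright cells from pneumonectomised animals with arrays of GFP-bright cells from sham-operated animals. The comparison holds 4 of the 12 arrays of the series, chosen by their titles alone: 2 bright arrays after pneumonectomy (PNX) and 2 bright arrays after the sham operation (SHAM). All animals carried a GFP reporter of Pdgfra, the gene of PDGF receptor alpha, and the labels give neither strain nor age. Lungs were taken 5 days after surgery and digested with dispase. For each sample 2000 cells were sorted by flow cytometry into lysis buffer, and their cDNA was amplified over 25 cycles before hybridisation. SHAM animals had the surgical trauma without loss of lung, PNX animals lost part of the lung, and a further group, PNX-dnFGFR, had PNX and expressed a dominant-negative FGF receptor 2 (the promoter that drives it is not named in the labels). The same conditions were also sorted through a dim GFP gate. The 2 arrays of each group are labelled biological replicates. The labels do not say if each came from 1 animal or from several, and p-values therefore measure the spread between these samples, which may be technical in part.

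After removal of part of a lung, the remaining lobes of an adult mouse grow and form new alveolar septa. Fibroblasts take part as producers of the collagen and elastic fibres of the septum, as contractile myofibroblasts that lie at septal tips, and as lipid-storing cells next to the epithelium. Fibroblasts that carry PDGF receptor alpha are a known source of such myofibroblasts, and FGF signals are among those that control them.

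All values are log2 signals of an Affymetrix mouse array, in which a difference of 1 is a 2-fold difference. Each gene was represented by its probe set of highest mean signal across the series (12 arrays), and 11073 genes were tested with limma, a linear model that shares information on the spread between genes. A difference counts as called at a Benjamini-Hochberg adjusted p below 0.05. A second, weaker description is used for groups of genes: how many members had an unadjusted p below 0.05, and how many were "apart", with both PNX arrays on one side of both SHAM arrays. Of all genes tested, 8.24% had an unadjusted p below 0.05 (4.69% higher and 3.55% lower in PNX), and 37.0% were apart (21.2% higher and 15.8% lower). The median difference over all genes was 0.02. Without SHAM replicate 2 the shares of all genes at an unadjusted p below 0.05, higher and lower in PNX, both fell. Without PNX replicate 2 both rose. List counts given below with an array left out are to be read beside this shift.

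The sorted cells carried a fibroblast transcriptome. On the 4 arrays Col1a1, the main chain of type I collagen, lay between 12.29 and 12.35, Col3a1 between 12.23 and 12.47, and Dcn, the gene of the matrix proteoglycan decorin, between 11.97 and 12.21. On the dim PNX and SHAM arrays Dcn lay between 6.14 and 8.48. Pdgfra, the reporter's own gene, had a signal of 4.84 to 5.25 here, while the dim PNX and SHAM arrays lay at 6.66 to 7.13. This order goes against the names of the gates, so bright is used here as the label of the arrays. The order rests on 1 probe set, and the bright signals lie around log2 5.10, the median of all values. Transcripts of other lung cells were present at high signal: the type 2 epithelial gene Sftpc had 11.76 to 12.06 and the macrophage gene Lyz2 9.77 to 10.57. The pan-leukocyte gene Ptprc had 4.42 to 5.29. In such bulk samples fewer cells of a type and less RNA per cell cannot be told apart.

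Replicates of one condition were about as close to arrays of the other condition as to each other. Pearson's r, taken across genes, which are no replicates, was 0.953 between the PNX arrays and 0.963 between the SHAM arrays, and 0.938 to 0.967 between arrays of different condition. PNX replicate 2 was closer to both SHAM arrays (0.967 and 0.962) than to PNX replicate 1. PNX replicate 1 was closer to both bright PNX-dnFGFR arrays (0.977 and 0.968) than to PNX replicate 2. The median absolute difference was 0.24 between the PNX replicates, 0.18 between the SHAM replicates and 0.17 between the means of the groups. Part of this spread was in transcripts of other cell types. Scgb1a1, the secretoglobin of airway club cells, had 6.85 and 10.58 on the PNX arrays and 5.73 and 11.58 on the SHAM arrays. Scgb3a2, another airway secretoglobin, had 3.94 and 7.95 on PNX and 3.97 and 10.08 on SHAM, so replicate 2 of each condition carried the higher airway signal. Mesothelial genes ran the other way: Upk3b had 8.83 and 5.10 on PNX and 7.39 and 4.46 on SHAM. Over the 10 mesothelial markers tested the mean level was 8.19 and 5.87 on PNX and 7.09 and 6.51 on SHAM, and the median difference between the PNX replicates was 2.50. The red cell gene Hba-a1 had 11.35 and 5.80 on PNX and 11.09 and 11.67 on SHAM. Single arrays were also left out for 125 genes whose difference is named below, with Car4 not counted. Of these, 47 had a difference smaller by over 1.5 times when 1 of the 4 arrays was left out. The count was 22 without SHAM replicate 2, 16 without PNX replicate 2, 14 without PNX replicate 1 and 2 without SHAM replicate 1.

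**Figure D1:**
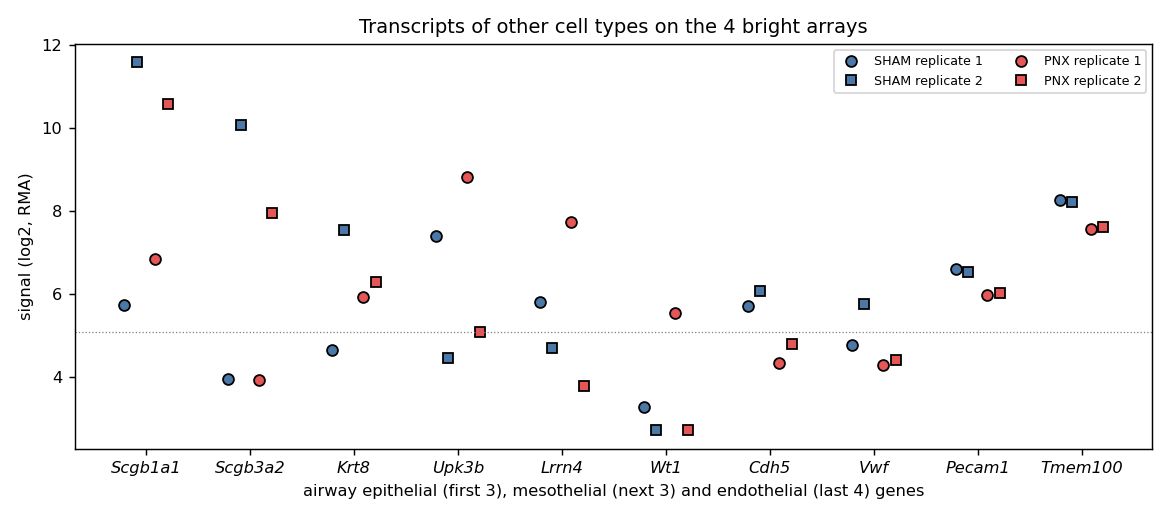
Log2 signal of 10 genes of other cell types on the 4 bright arrays (blue SHAM, red PNX; circles replicate 1, squares replicate 2; the dotted line is the filter at log2 5.10). Airway genes such as Scgb1a1 are high on replicate 2 of both conditions and mesothelial genes such as Upk3b on replicate 1, while the endothelial genes Cdh5, Pecam1 and Tmem100 are lower on both PNX arrays.

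One gene passed the adjusted threshold, which is 0.00903% of those tested. Cthrc1 encodes collagen triple helix repeat containing 1, a secreted glycoprotein known from activated fibroblasts of injured tissue. It had 7.27 and 7.20 on the PNX arrays and 4.32 and 4.73 on the SHAM arrays. Both PNX arrays lay far above both SHAM arrays, and the PNX replicates differed by less than the SHAM replicates did. Cthrc1 rose by 2.71 log2 (± 0.24 SE, n = 2 arrays per group, 95% interval 2.18 to 3.24, limma adjusted p = 0.0096), a 6.54-fold difference. The SHAM signals lie below log2 5.10, the median of all values used as the filter, where a signal is not shown to be above background; with values below the filter set to it the difference was 2.13. It was 2.51 to 2.91 when any 1 of the 4 arrays was left out, but the call was lost without PNX replicate 1 (2.68, adjusted p = 0.13), without SHAM replicate 1 (2.51, adjusted p = 0.054) and without SHAM replicate 2 (2.91, adjusted p = 0.050). It was also lost when the spread was taken from the 4 arrays alone (adjusted p = 0.44) or from the 6 bright arrays (adjusted p = 0.29). An exact permutation test of 2 against 2 arrays cannot give a two-sided p below 0.333.

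Postn encodes periostin, a matricellular protein that binds collagen and is made by activated fibroblasts. Its signals were 7.88 and 8.26 on PNX and 6.12 and 6.16 on SHAM, with no overlap. The difference was 1.93 (± 0.24 SE, n = 2 per group, limma adjusted p = 0.104), which did not pass. It did pass with low values held at the filter (adjusted p = 0.040), and when either bright PNX-dnFGFR array was left out of the shared spread (adjusted p = 0.043 in each case).

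In the dim gate the differences were 0.41 for Cthrc1 and 0.15 for Postn. Cthrc1 had 2.78 and 3.24 on the dim PNX arrays and 2.65 and 2.55 on the dim SHAM arrays, all below the filter. The effect of PNX on Cthrc1 was larger by 2.30 in bright than in dim cells (± 0.34 SE, limma adjusted p of the difference = 0.174). Postn had 4.63 and 4.39 on dim PNX and 4.48 and 4.24 on dim SHAM, and its effect was larger by 1.78 in bright cells (± 0.34 SE, limma adjusted p = 0.574). Over all genes 0 passed this test of the difference, 495 (4.47%) had an unadjusted p below 0.05, and the smallest adjusted p was 0.172. In PNX-dnFGFR animals the bright arrays had 7.58 and 7.02 for Cthrc1 and 8.06 and 7.39 for Postn. The difference from SHAM was thus 2.77 and 1.58 in PNX-dnFGFR animals, against 2.71 and 1.93 in PNX animals. Both comparisons use the same SHAM arrays.

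**Figure D2:**
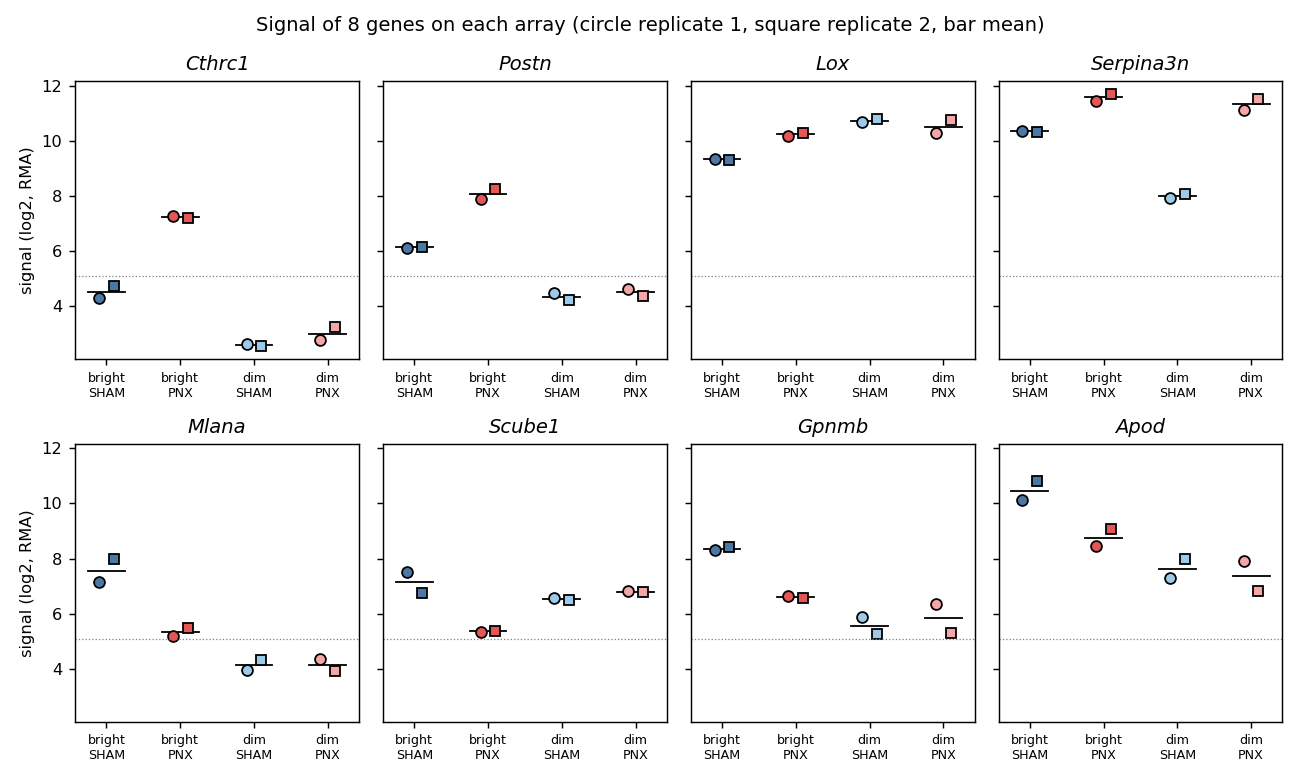
Log2 signal of 8 genes on each bright and dim array of SHAM and PNX animals (circles replicate 1, squares replicate 2, bars the mean of 2 arrays; the dotted line is the filter at log2 5.10). Both bright PNX arrays lie above both bright SHAM arrays for Cthrc1, Postn, Lox and Serpina3n and below them for Mlana, Scube1, Gpnmb and Apod; Serpina3n has a difference of 3.33 in dim and 1.24 in bright arrays.

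Beyond Cthrc1 the leading genes are described by value, since none passed. Pianp, chosen after its values were seen, had the only difference above that of Cthrc1 among genes with higher signal in PNX, 2.80 (± 1.05 SE), with an unadjusted p of 0.025. The rule took the 20 largest differences in each direction among genes apart at an unadjusted p below 0.01, of which there were 117 higher and 100 lower in PNX. Among the higher genes were several secreted regulators. Tnfrsf11b, the gene of osteoprotegerin, a decoy receptor for the ligand RANKL, had 6.93 and 5.63 on PNX and 4.06 and 4.44 on SHAM, a difference of 2.03 (± 0.38 SE, and 1.18 with low values held at the filter). Without PNX replicate 1, the array with the highest mesothelial signal, it was 1.38, and without PNX replicate 2 it was 2.68 and passed (limma adjusted p = 0.023). Ccn2, which encodes connective tissue growth factor, had 7.57 and 8.67 on PNX against 6.84 and 6.72 on SHAM, a difference of 1.34 (± 0.36 SE). Hbegf, the gene of heparin-binding EGF-like growth factor, had 6.09 and 5.92 against 5.19 and 4.25, a difference of 1.29 (± 0.31 SE). Its other probe set gave 0.54, and the signal of 4.25, on SHAM replicate 2, lies below the filter. Pappa2, a protease that cleaves IGF-binding proteins, differed by 1.59, but only by 0.55 with low values held at the filter.

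The higher genes also included an acute-phase gene, a complement gene and 1 gene of the retinoid pathway. Serpina3n, the gene of an acute-phase protease inhibitor, had 11.45 and 11.71 on PNX and 10.36 and 10.32 on SHAM, a difference of 1.24 (± 0.21 SE). Its difference in the dim gate was 3.33. Cfi, complement factor I, differed by 1.44 (0.86 with low values held). The gene listed as D17H6S56E-5 differed by 1.25, and by 0.81 on its other probe set. Crabp2, a carrier of retinoic acid to its receptor, had 6.91 and 6.09 on PNX and 5.28 and 5.10 on SHAM, a difference of 1.31 (± 0.30 SE). Sphk2, a sphingosine kinase, differed by 1.40 on the probe set used and by -0.05 on its other probe set. Ckap2, a spindle protein gene, differed by 1.51, and Uhrf1, which maintains DNA methylation at replication, by 1.21. The other genes of this group were Fbn2 (1.63), Ecscr (1.56), Map3k7cl (1.54), Jpt2 (1.41), Gabra3 (1.39), Serpinb6b (1.29) and Aass (1.24). For Fbn2, Jpt2 and Aass most of the difference lay below the filter, with held values of 0.36, 0.31 and 0.00. The held value was 0.79 for Map3k7cl, 0.71 for Gabra3 and 0.99 for Ckap2.

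The genes lower in PNX included a pair of melanosome genes, a lipid carrier and an antagonist of bone morphogenetic proteins. Mlana, a melanosome gene, had 5.21 and 5.48 on PNX and 7.15 and 7.98 on SHAM, a difference of -2.22 (± 0.48 SE, limma adjusted p = 0.297). Gpnmb, a transmembrane glycoprotein of melanosomes and lysosomes, had 6.64 and 6.56 on PNX and 8.31 and 8.43 on SHAM, a difference of -1.77 (± 0.37 SE). Its replicates were close to each other in each condition. Apod, the lipid carrier apolipoprotein D, had 8.45 and 9.06 against 10.11 and 10.81, a difference of -1.70 (± 0.40 SE). Scube1, a secreted and cell-surface protein with EGF-like repeats, had 5.34 and 5.39 on PNX and 7.53 and 6.77 on SHAM, a difference of -1.78 (± 0.27 SE, limma adjusted p = 0.255).

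Zbtb16, a transcription factor gene induced by glucocorticoids, had 6.90 and 6.40 on PNX and 8.76 and 8.40 on SHAM, a difference of -1.93 (± 0.46 SE), and the dim gate gave -2.04. Tmem178 differed by -1.90 in bright cells and by 1.11 in dim cells, where the arrays overlapped. Chrdl1, a secreted antagonist of bone morphogenetic proteins, had 5.46 and 6.10 on PNX and 7.07 and 7.19 on SHAM, a difference of -1.35 (± 0.37 SE); its 3 other probe sets gave -0.26 to -1.19. Npr3, the clearance receptor of natriuretic peptides, differed by -1.51 and by -1.54 and -1.86 on its other probe sets. Lrat, which esterifies retinol for storage, had 4.93 and 5.70 on PNX and 6.40 and 7.34 on SHAM, a difference of -1.56 (± 0.45 SE). Wnt2b, a Wnt ligand gene, had 7.13 and 7.47 against 8.31 and 8.68, a difference of -1.20 (± 0.34 SE). The other genes were Hoxb7 (-1.79), Acaa1b (-1.53), Sstr4 (-1.33), Arntl (-1.32), Npas2 (-1.31), Nat8 (-1.31), Cdh13 (-1.29), Stc1 (-1.12), Ralgps2 (-1.09) and Nap1l5 (-1.04). The held value was -0.26 for Cdh13 and -0.49 for Nap1l5. Other probe sets gave smaller differences, -0.27, -0.07 and -0.53 for Cdh13 and -0.69 and -0.10 for Ralgps2.

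**Figure D3:**
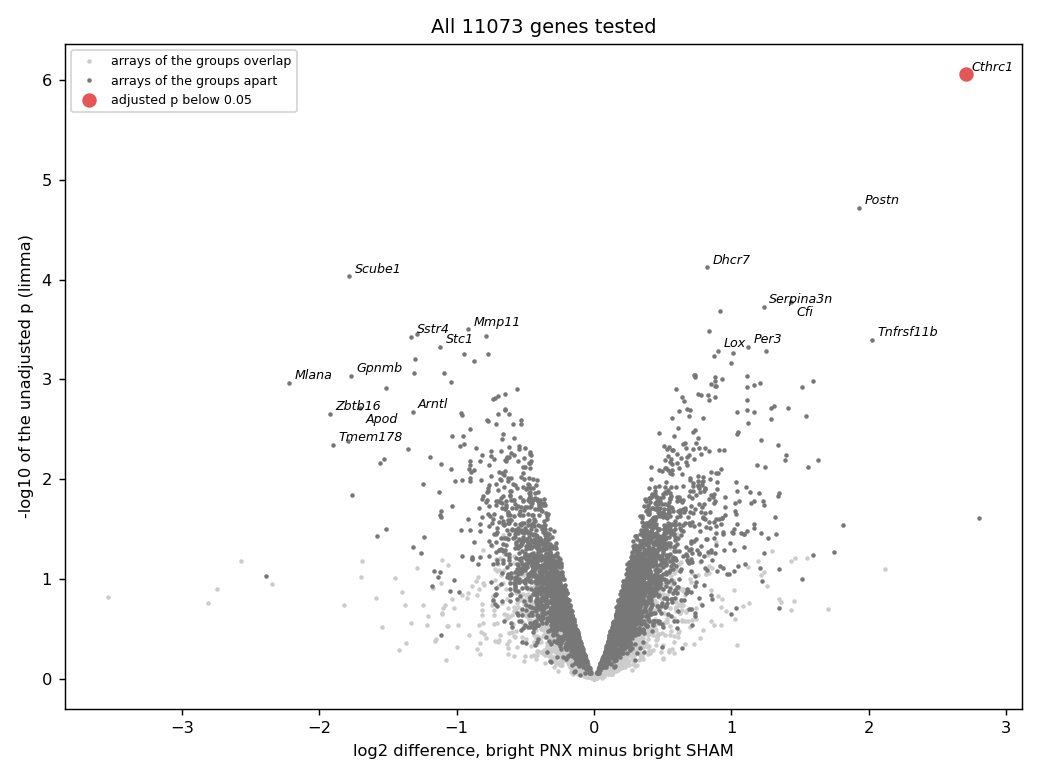
Difference between bright PNX and bright SHAM arrays (x axis, log2) against minus log10 of limma's unadjusted p (y axis) for the 11073 genes tested. Dark grey points are genes that are apart, light grey points overlap, and the red point is Cthrc1 (2.71), the 1 gene past the adjusted threshold.

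Matricellular proteins sit in the matrix without being its scaffold and tune adhesion and growth factor access. Of the 26 matricellular and matrix turnover genes tested, Cthrc1 passed. At an unadjusted p below 0.05, 7 were higher and 2 lower in PNX, and 12 were apart upwards and 8 downwards. The median of the 26 was 0.15. The same shares over all genes were 4.69% and 3.55% at that p, and 21.2% and 15.8% apart. Ccn5, Ccn3, Thbs4 and Timp1 were chosen after their values were seen. Ccn5, a relative of Ccn2, had 7.56 and 8.36 on PNX and 6.99 and 7.18 on SHAM, a difference of 0.87 (± 0.30 SE). Ccn3 differed by 0.80, Thbs4, a thrombospondin, by 0.92 (0.21 held), and Timp1, an inhibitor of matrix metalloproteinases, by 0.89 (± 0.33 SE). Mmp11, a metalloproteinase of stromal cells, was the strongest in the other direction, with 8.71 and 9.09 on PNX and 9.68 and 9.96 on SHAM, a difference of -0.92 (± 0.17 SE). Spon2, a spondin of the matrix, had 9.58 and 9.63 against 10.11 and 10.34, a difference of -0.62 (± 0.15 SE). Neither passed. The count of 7 became 4 without PNX replicate 2 and 4 without SHAM replicate 1.

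None of the collagen genes passed. Col1a1 had 12.35 and 12.34 on PNX and 12.29 and 12.29 on SHAM, a difference of 0.06 (± 0.12 SE), and Col3a1 differed by 0.09 (± 0.14 SE). Both lie near the upper end of the array's signal, which reached 13.05. Col5a1, a fibrillar collagen of lower signal, had 11.02 and 10.85 on PNX and 10.67 and 10.50 on SHAM (0.34 ± 0.19 SE). Col1a2 and Col5a2, chosen after their values were seen, differed by 0.43 (± 0.27 SE) and 0.16 (± 0.17 SE). Of 22 collagen genes 1 had an unadjusted p below 0.05, Col4a5, a chain of basement membrane collagen, with 9.18 and 8.84 on PNX and 8.70 and 8.30 on SHAM (0.51 ± 0.19 SE). The collagens that were apart, 10 of 22, were all higher in PNX, beside 21.2% of all genes, and the median was 0.20. Enzymes that modify and crosslink collagen had more members at an unadjusted p below 0.05, 5 higher and 1 lower of 17. The shares of all genes at that p were 4.69% and 3.55%. Of the 17, 11 were apart upwards and 2 downwards, beside 21.2% and 15.8% of all genes, and the median was 0.22. Lox, the lysyl oxidase that starts crosslinking of collagen and elastin, had 10.19 and 10.28 on PNX and 9.35 and 9.31 on SHAM. The groups were well apart, and the difference was 0.90 (± 0.17 SE, limma adjusted p = 0.297), with -0.22 in the dim gate. Loxl2, a related oxidase, differed by 0.56 (± 0.18 SE). P3h1 and Crtap, partners in the complex that hydroxylates a proline of collagen chains, differed by 0.59 and 0.38, and Plod2, a lysyl hydroxylase, by 0.56; Crtap and Plod2 were chosen after their values were seen. Pcolce2, an enhancer of procollagen cleavage, had 11.06 and 11.27 on PNX and 11.49 and 11.60 on SHAM (-0.38 ± 0.14 SE). The count of 5 became 2 without SHAM replicate 2. Of 13 elastic fibre genes 1 was higher (Fbn2) and 1 lower (Efemp1, -0.44) at an unadjusted p below 0.05, and Eln, the gene of elastin, differed by -0.07 (± 0.15 SE).

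Contractile genes of the myofibroblast had mostly higher signals in PNX, and none passed. Of 14 tested, 6 had an unadjusted p below 0.05 with a higher signal, beside 4.69% of all genes, and 0 with a lower one. Of the 14, 9 were apart upwards, beside 21.2% of all genes, and 1 downwards. The median was 0.34 in bright and 0.25 in dim cells. Acta2, the gene of smooth muscle actin, had 9.73 and 10.11 on PNX and 9.36 and 8.14 on SHAM, a difference of 1.16 (± 0.45 SE, limma adjusted p = 0.553). SHAM replicate 2 was the low array, and without it the difference was 0.55; the second, dimmer probe set gave 0.12. Tpm2, a tropomyosin, had 9.92 and 9.43 against 9.20 and 8.53 (0.81 ± 0.26 SE). Actn1, an actin crosslinker, had 9.95 and 10.39 against 9.62 and 9.68 (0.52 ± 0.17 SE). Myl9 (0.55), Myh11 (0.54) and Cnn2 (0.29) complete the 6. The count fell to 1 without SHAM replicate 2 and to 3 without PNX replicate 2 or without SHAM replicate 1. Of 12 alveolar myofibroblast markers 2 were higher and 1 lower at an unadjusted p below 0.05, with a median of 0.09, and the 2 became 0 without SHAM replicate 2; the lower one was Stc1, the hormone stanniocalcin 1, with 5.12 and 4.81 on PNX and 6.31 and 5.86 on SHAM.

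The circadian clock is a feedback loop in which Arntl (BMAL1) pairs with Clock or Npas2 on E-box sequences and drives its own repressors, the Per and Cry genes and the Nr1d receptors, together with output factors of the D-box family (Dbp, Tef, Hlf). Nr1d receptors act back on Arntl through ROR elements. The promoters of 4 such genes are shown because these genes differed in opposite directions between PNX and SHAM, from 250 bases before to 50 after the start site, as RefSeq gives them for GRCm38.p6. Capitals mark E-boxes (CACGTG) in Per1 and Tef, D-boxes (TTATGTAA) in Per3, and the core of a ROR element (TAGGTCA) in Arntl, searched on both strands. They lie at chr11:69098699-69098998 (plus strand) for Per1, chr15:81811164-81811463 (plus) for Tef, chr4:151044616-151044915 (minus) for Per3 and chr7:113207261-113207560 (plus) for Arntl, and Per1, Tef and Arntl have a further window each in the table, in which no motif was found for Per1 and Arntl and an E-box for Tef.
Per1: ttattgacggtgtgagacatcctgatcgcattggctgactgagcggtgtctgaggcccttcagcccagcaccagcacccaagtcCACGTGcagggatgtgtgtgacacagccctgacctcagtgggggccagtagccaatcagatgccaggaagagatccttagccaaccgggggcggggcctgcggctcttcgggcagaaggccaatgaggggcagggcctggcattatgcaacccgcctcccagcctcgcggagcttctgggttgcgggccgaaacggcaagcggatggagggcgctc
Tef: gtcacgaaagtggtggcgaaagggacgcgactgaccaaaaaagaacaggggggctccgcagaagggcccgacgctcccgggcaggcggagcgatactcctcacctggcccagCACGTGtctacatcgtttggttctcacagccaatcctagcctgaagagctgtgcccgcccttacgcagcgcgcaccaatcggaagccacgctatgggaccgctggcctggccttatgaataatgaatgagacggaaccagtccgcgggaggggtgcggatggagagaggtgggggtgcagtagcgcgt
Per3: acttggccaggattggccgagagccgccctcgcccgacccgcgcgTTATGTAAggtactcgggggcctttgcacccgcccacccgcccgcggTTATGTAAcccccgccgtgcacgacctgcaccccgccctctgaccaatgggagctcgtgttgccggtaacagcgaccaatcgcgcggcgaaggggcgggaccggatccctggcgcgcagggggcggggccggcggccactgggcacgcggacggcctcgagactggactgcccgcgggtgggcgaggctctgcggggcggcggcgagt
Arntl: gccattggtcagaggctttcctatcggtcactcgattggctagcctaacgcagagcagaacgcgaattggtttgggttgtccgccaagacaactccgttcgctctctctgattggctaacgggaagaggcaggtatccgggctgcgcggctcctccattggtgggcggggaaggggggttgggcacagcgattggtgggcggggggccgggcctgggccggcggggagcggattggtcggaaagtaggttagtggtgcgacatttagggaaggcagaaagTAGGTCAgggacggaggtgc

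Counted from the start site, the E-box began at base -166 in Per1 and at -138 in Tef. E-boxes were found in 5 of 12 windows of the repressor and E-box output genes (41.7%). These 5 windows came from 4 of 10 genes, since both Tef windows held one. The share was 7.15% of the 32851 windows in the RefSeq table and 4 of 14 windows (28.6%) of the cholesterol synthesis genes described below. The D-boxes of Per3 began at -205 and -158, and 0.938% of all windows held one. The ROR core of Arntl began at base 31; it was found in 2 of 9 windows of the activators (22.2%) and in 2.61% of all windows. Both clock lists were drawn up as E-box output and ROR element genes, so their shares of these motifs follow in part from the choice of members. A match is a description of the letters in the window only.

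No clock gene passed the adjusted threshold, and the values ran as follows. Per3 had 8.28 and 8.30 on PNX and 7.38 and 6.96 on SHAM, a difference of 1.12 (± 0.21 SE, limma adjusted p = 0.297), and its 4 other probe sets gave 0.76 to 1.06. Per1 had 8.47 and 8.78 against 7.89 and 7.30 (1.03 ± 0.38 SE), and Per2 had 7.11 and 7.63 against 6.10 and 6.50 (1.07 ± 0.43 SE). Nr1d2, the gene of the receptor REV-ERB beta, had 8.69 and 8.97 against 8.31 and 7.82 (0.77 ± 0.21 SE). Dbp had 8.08 and 8.24 against 7.50 and 6.54 (1.14 ± 0.37 SE), Tef differed by 0.70 (± 0.23 SE) and Hlf by 0.56 (± 0.22 SE). Usp2, a deubiquitinase with a daily rhythm, differed by 1.03 (± 0.32 SE), and Ciart, another repressor, by 0.47 (± 0.22 SE). Every gene named in these sentences was apart. Dbp, Hlf and Per2 were chosen after their values were seen. On the other side, Arntl had 5.44 and 5.49 on PNX and 6.30 and 7.27 on SHAM, a difference of -1.32 (± 0.31 SE), with -0.76 on its second probe set. Npas2 had 6.82 and 7.49 against 8.21 and 8.73, a difference of -1.31 (± 0.27 SE), while Clock differed by -0.19 (± 0.18 SE).

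Of 12 repressors and outputs none passed the adjusted threshold, 8 had an unadjusted p below 0.05 with a higher signal, beside 4.69% of all genes, and 10 were apart, all higher. Their median was 0.73 in bright cells and 1.0 in dim cells. In PNX-dnFGFR animals, compared with the same SHAM arrays, the bright median was -0.11, with Per3 at -0.02 and Per1 at -0.18. Of 6 activators and ROR element genes 2 were lower at an unadjusted p below 0.05, Arntl and Npas2. The count of 8 was 2 without PNX replicate 2, 3 without SHAM replicate 2, 6 without SHAM replicate 1 and 8 without PNX replicate 1. The labels give no hour of collection. Of 14 glucocorticoid response genes (Per1 is in both lists) 4 were higher and 1 lower (Zbtb16) at an unadjusted p below 0.05, with a median of 0.56, and the 4 became 0 without SHAM replicate 2 and 1 without PNX replicate 2. Errfi1, a feedback inhibitor of EGF receptors, had 10.03 and 10.37 on PNX and 9.43 and 9.33 on SHAM (0.82 ± 0.32 SE), Ddit4 differed by 0.95 and Cebpd, chosen after its values were seen, by 0.89 (0.35 without PNX replicate 2).

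**Figure D4:**
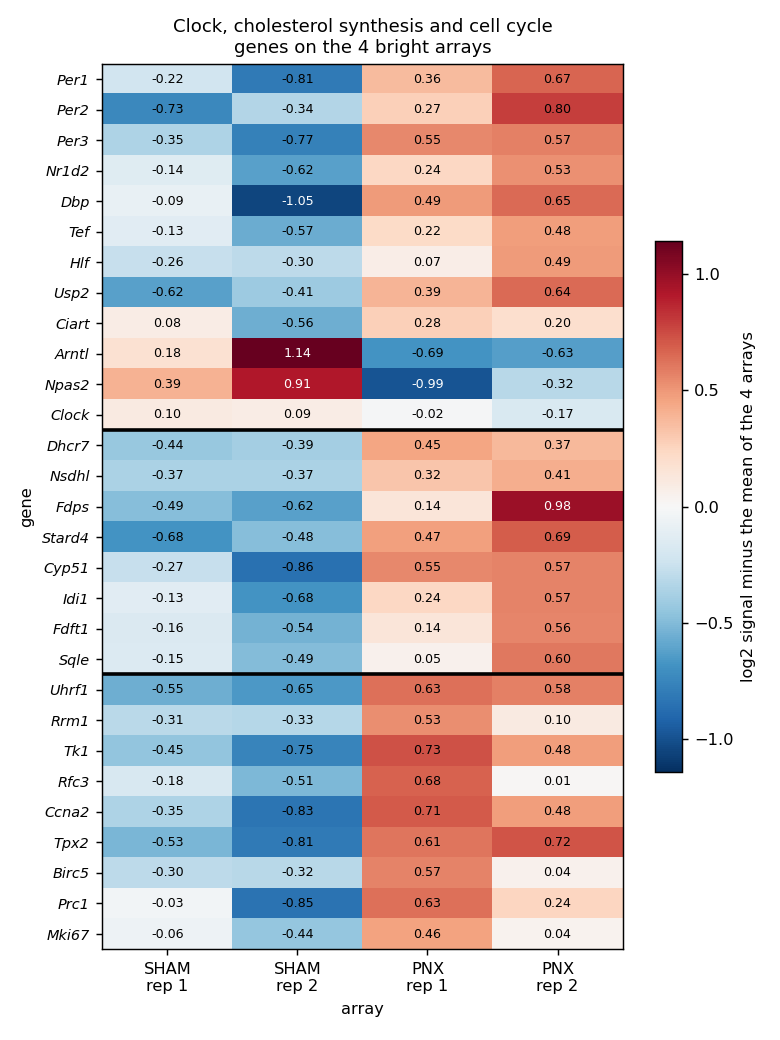
Log2 signal minus the mean of the 4 bright arrays (colour and printed value) for 12 clock genes, 8 cholesterol synthesis genes and 9 cell cycle genes, in columns by array. Per1 to Ciart are above their mean on both PNX arrays and Arntl and Npas2 below it; the cholesterol genes are above it on both PNX arrays.

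Cholesterol synthesis genes had higher signals in PNX, without a call. The pathway builds cholesterol from acetyl-CoA and is switched on by SREBP2 when sterols are scarce. Dhcr7, the last enzyme of one branch, had 8.10 and 8.02 on PNX and 7.21 and 7.26 on SHAM, a difference of 0.82 (± 0.12 SE, limma adjusted p = 0.255). Nsdhl, a sterol dehydrogenase, had 7.73 and 7.83 against 7.05 and 7.05 (0.73 ± 0.15 SE). Fdps, which makes farnesyl diphosphate, had 7.39 and 8.23 against 6.76 and 6.63 (1.11 ± 0.24 SE). Cyp51, a lanosterol demethylase, had 8.39 and 8.41 against 7.57 and 6.98 (1.12 ± 0.28 SE). Stard4, a carrier of cholesterol between membranes, had 7.19 and 7.40 against 6.03 and 6.23 (1.17 ± 0.28 SE). Idi1, Fdft1 and Sqle, enzymes of the middle of the pathway chosen after their values were seen, differed by 0.81, 0.70 and 0.65. Both PNX arrays were above both SHAM arrays for all of these 8 genes.

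Of 16 cholesterol synthesis genes tested 8 had an unadjusted p below 0.05 with a higher signal and 0 with a lower one. The share of all genes that were higher at that p was 4.69%. Of the 16, 12 were apart, all higher, beside 21.2% of all genes, and none passed after adjustment. The median was 0.50 in bright cells, 0.43 in dim cells and 0.64 in bright cells of PNX-dnFGFR animals, against the same SHAM arrays. The count of 8 was 5 to 10 when 1 of the 4 arrays was left out, lowest without SHAM replicate 2. The promoter of Nsdhl (chrX:72918271-72918570, plus strand, GRCm38.p6, from RefSeq) is shown as the window of this group with 4 CCAAT boxes, in capitals on either strand, at -109, -20, 9 and 35 from the start site.
Nsdhl: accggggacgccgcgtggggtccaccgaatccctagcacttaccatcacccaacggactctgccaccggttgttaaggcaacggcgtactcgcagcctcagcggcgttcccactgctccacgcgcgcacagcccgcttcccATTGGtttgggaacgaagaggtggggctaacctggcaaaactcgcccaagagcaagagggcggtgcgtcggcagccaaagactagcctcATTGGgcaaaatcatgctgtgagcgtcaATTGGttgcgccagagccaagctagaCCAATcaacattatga
CCAAT was found in 12 of the 14 windows of this group (85.7%) and in 37.4% of all windows. It was not particular to the group. The other lists searched had it in 83.3% (clock repressors and outputs), 78.3% (mitosis), 66.7% (clock activators) and 64.0% (S phase) of their windows. The sterol element TCACNCCAC was in 0 of the 14 windows and in 1.24% of all windows. Of 14 fatty acid synthesis genes 3 were higher and 0 lower at an unadjusted p below 0.05, with a median of 0.22. Elovl6, which elongates fatty acids, had 7.58 and 7.39 on PNX and 6.76 and 6.52 on SHAM, a difference of 0.84 (± 0.15 SE).

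Most cell cycle genes had a higher signal in bright PNX cells, with wide errors. Of 24 S phase and DNA replication genes 10 had an unadjusted p below 0.05 with a higher signal and 0 with a lower one. Of the 24, 16 were apart, all higher, and the median of the list was 0.62. Among all genes 4.69% were higher at that p and 21.2% were apart upwards. Uhrf1 had 7.20 and 7.14 on PNX and 6.01 and 5.91 on SHAM, with close replicates in both groups, and the difference was 1.21 (± 0.26 SE, limma adjusted p = 0.297). Rrm1, a subunit of ribonucleotide reductase, had 7.61 and 7.18 against 6.77 and 6.75 (0.64 ± 0.18 SE), Tk1, thymidine kinase, differed by 1.20 (± 0.40 SE) and Rfc3, a clamp loader subunit, by 0.69 (± 0.23 SE). Of 26 mitosis genes 4 were higher at an unadjusted p below 0.05 and 0 lower, and 20 were apart upwards and 2 downwards, with a median of 0.52. Ccna2, cyclin A2, had 7.81 and 7.58 against 6.74 and 6.27 (1.19 ± 0.35 SE), and Tpx2, a spindle assembly factor, had 6.38 and 6.49 against 5.24 and 4.96 (1.34 ± 0.45 SE). Birc5, survivin, differed by 0.61 (± 0.22 SE) and Prc1, which bundles midzone microtubules, by 0.88 (± 0.36 SE). Mki67, the usual proliferation marker, had 6.72 and 6.29 against 6.20 and 5.82 (0.50 ± 0.68 SE).

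None of these genes passed, and leaving out single libraries moved the counts. The S phase count of 10 was 2 without PNX replicate 1, 3 without SHAM replicate 2, 8 without PNX replicate 2 and 11 without SHAM replicate 1, and the mitosis count of 4 was 0 without SHAM replicate 2. In dim cells the medians were -0.00 for S phase and -0.40 for mitosis. In bright cells of PNX-dnFGFR animals they were 1.29 and 1.42 against the same SHAM arrays, with Ccna2 at 2.02 and Mki67 at 1.62. Mesothelial markers, which are highest on PNX replicate 1, had a mean level of 8.19 on that array and 5.87 on PNX replicate 2; their part in these counts was not tested.

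No marker of resident fibroblast types passed. Of 19 adventitial fibroblast genes, which mark fibroblasts around vessels and airways, 4 were lower and 0 higher at an unadjusted p below 0.05. Of the 19, 9 were apart downwards and 1 upwards, and the median was -0.12 against 0.21 in dim cells. Of all genes tested 3.55% were lower at that p and 15.8% apart downwards. Entpd2, an ectonucleotidase, had 8.58 and 8.50 on PNX and 9.23 and 9.15 on SHAM, a difference of -0.65 (± 0.15 SE). Scara5, a ferritin receptor, had 8.75 and 9.35 against 9.86 and 9.90 (-0.83 ± 0.33 SE). Pcsk6, a proprotein convertase, differed by -0.78 (± 0.25 SE) and Dpp4, a dipeptidase, by -0.57 (± 0.24 SE). The count of 4 was 1 without PNX replicate 1 and 2 without either SHAM array.

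Alveolar fibroblast and lipofibroblast genes gave 3 lower and 1 higher at an unadjusted p below 0.05 of 21 tested, with a median of -0.17. The shares of all genes at that p were 3.55% lower and 4.69% higher. The 3 were 5 without PNX replicate 2 and 1 without SHAM replicate 2. Itga8, an integrin chain of alveolar fibroblasts, had 7.81 and 7.82 on PNX and 8.32 and 8.53 on SHAM, a difference of -0.61 (± 0.20 SE). Inmt, an amine methyltransferase, had 11.80 and 11.98 against 12.22 and 12.27 (-0.35 ± 0.13 SE), and Slc7a10, an amino acid transporter, differed by -0.62 (± 0.17 SE, held value -0.39). Dgat2, which makes triglycerides for lipid droplets, went the other way, with 6.74 and 7.11 on PNX and 5.88 and 5.95 on SHAM (1.01 ± 0.20 SE, limma adjusted p = 0.297). Its difference was -0.06 in PNX-dnFGFR animals against the same SHAM arrays. Plin2, which coats lipid droplets, overlapped between the groups (-0.22 ± 0.21 SE).

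**Figure D5:**
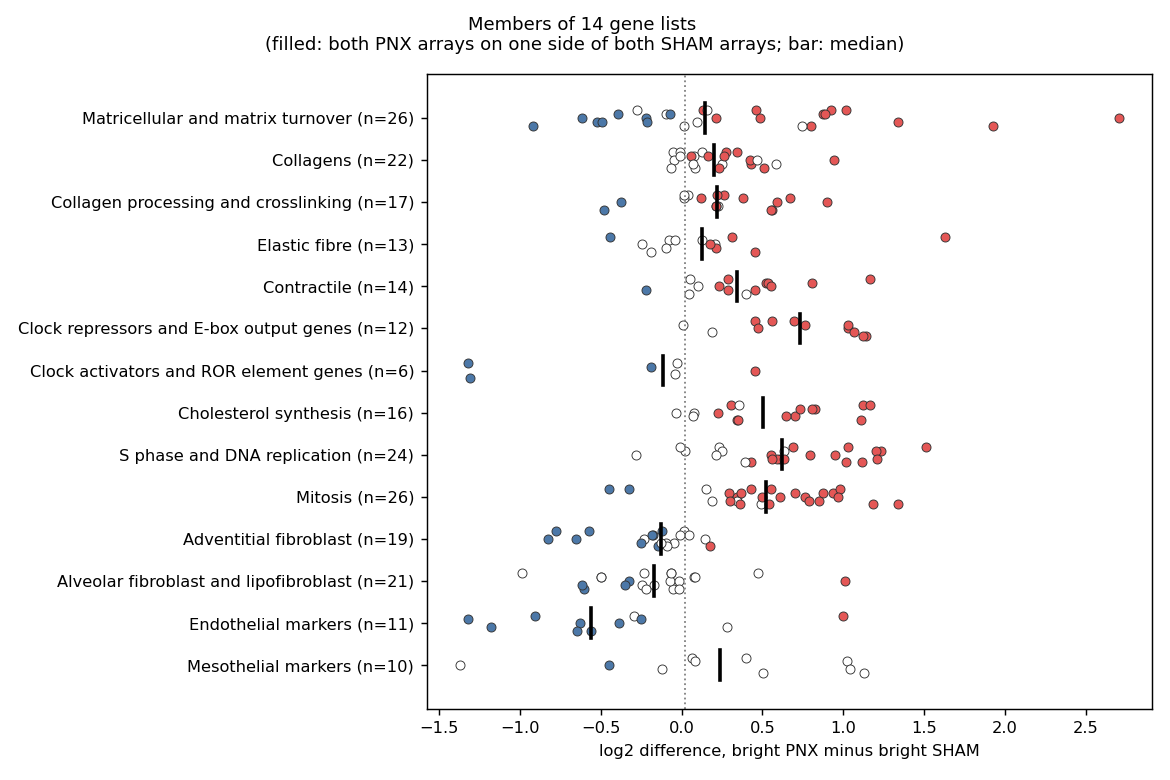
Difference between bright PNX and bright SHAM (log2) for each member of 14 gene lists, with the number tested in brackets. Red and blue points are members higher or lower on both PNX arrays than on both SHAM arrays, white points overlap, bars are medians, and the dotted line is the median of all genes (0.02). The clock repressors and outputs have the highest median (0.73) and the endothelial markers the lowest (-0.56).

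No member of the signalling lists passed the adjusted threshold. Of all genes tested 4.69% were higher and 3.55% lower at an unadjusted p below 0.05. In the FGF and PDGF pathway 0 of 21 genes had an unadjusted p below 0.05 (1 higher and 2 lower without PNX replicate 2), and the median was -0.01. Fgfr2, the receptor whose dominant-negative form PNX-dnFGFR animals express, had 9.39 and 9.21 on PNX and 9.05 and 8.50 on SHAM (0.53 ± 0.36 SE), and Fgfr1 differed by -0.17 (± 0.16 SE). Pdgfra differed by -0.22 (± 0.17 SE). In the TGF-beta pathway 3 of 18 genes (16.7%) were higher and 0 lower at that p, with a median of -0.06. Inhba, an activin subunit, had 7.70 and 7.29 on PNX and 7.02 and 5.50 on SHAM (1.23 ± 0.42 SE, and 0.47 without SHAM replicate 2), and Tgfb2, a TGF-beta ligand, had 7.0 and 6.16 against 5.77 and 5.10 (1.15 ± 0.40 SE) while Smad2, a signal transducer of the pathway, differed by 0.36; the 3 became 0 without SHAM replicate 2. The BMP list had 0 higher and 1 lower of 17 (Chrdl1), the Wnt list 0 and 2 of 16 (Wnt2b, and the antagonist Dkk3 at -0.51 ± 0.15 SE; 3 higher without PNX replicate 2), the Hedgehog list 0 and 1 of 12, the IGF axis 0 and 1 of 10 (Igfbp3, -1.12 ± 0.41 SE), and the retinoid list 1 and 2 of 15, with Crabp2 higher and Lrat lower.

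The stress and metabolic lists not described above follow here. Among them the immediate early genes and the acute phase and complement genes had the most members with a small p. Of 22 immediate early genes 4 (18.2%) were higher and 0 lower at an unadjusted p below 0.05, beside 4.69% of all genes, with a median of 0.14. Nr4a2, an orphan nuclear receptor gene, had 7.72 and 8.46 on PNX and 6.79 and 7.30 on SHAM (1.04 ± 0.25 SE), Myc differed by 1.01 (± 0.41 SE) and Egr2 by 1.04 (± 0.40 SE). The count was 1 without SHAM replicate 1 and 2 without PNX replicate 1. Unfolded protein and heat shock genes gave 2 and 1 of 21, cytokines and chemokines 2 and 0 of 17 (4 higher without PNX replicate 2), acute phase and complement genes 3 (16.7%) and 1 of 18 (5 higher without PNX replicate 2), glycolysis and hypoxia genes 0 and 1 of 17 (3 higher without PNX replicate 2), oxidative phosphorylation genes 0 and 0 of 24 and interferon response genes 0 and 0 of 11. Vegfa, the vascular growth factor gene, was the 1 of the glycolysis and hypoxia list, with 8.40 and 9.05 on PNX and 9.16 and 9.40 on SHAM (-0.55 ± 0.22 SE).

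Most endothelial markers tested had a lower signal on both PNX arrays, without a call. Of 11 tested 3 were lower and 0 higher at an unadjusted p below 0.05, beside 3.55% of all genes lower. Of the 11, 8 were apart downwards, beside 15.8% of all genes, and 1 upwards. The median was -0.56, against 0.01 in dim cells. Tmem100, a membrane protein of endothelium, had 7.57 and 7.61 on PNX and 8.26 and 8.21 on SHAM (-0.65 ± 0.15 SE). Vwf, von Willebrand factor, had 4.30 and 4.42 against 4.77 and 5.76 (-0.91 ± 0.28 SE, held value -0.33). Cdh5, VE-cadherin, had 4.35 and 4.80 against 5.72 and 6.08 (-1.32 ± 0.58 SE, held value -0.80). Pecam1, chosen after its values were seen, had 5.98 and 6.04 against 6.60 and 6.54 (-0.56 ± 0.42 SE), and Ramp2 differed by -0.25. Of the 11 markers 9 had a negative and 2 a positive difference. The highest was that of Car4, also chosen after its values were seen, at 0.999. The mean level of the list was 6.54 and 6.43 on PNX and 6.84 and 7.03 on SHAM, so the groups did not overlap. Its part in the other differences between PNX and SHAM was not tested. The count of 3 was 1 without SHAM replicate 2 and 2 without PNX replicate 1 or SHAM replicate 1.

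Of the 8 remaining lists of other cell types, all but the pericyte list had mean levels that overlapped between PNX and SHAM. Over all genes 4.69% were higher and 3.55% lower at an unadjusted p below 0.05. For epithelial markers 0 were higher and 1 lower of 14 at an unadjusted p below 0.05, and the mean level was 7.30 and 7.84 on PNX and 6.96 and 8.49 on SHAM. Macrophage and dendritic markers gave 0 and 0 of 20, with mean levels of 6.27 and 6.74 on PNX and 6.97 and 6.31 on SHAM. Pericyte markers had mean levels of 6.86 and 6.87 on PNX and 7.04 and 6.93 on SHAM, so both PNX arrays lay below both SHAM arrays, as for the endothelial list, with 0 and 0 of 6 at that p. Lymphocyte markers gave 0 and 2 of 8 (0 lower without SHAM replicate 1), neutrophil and mast cell markers 1 and 0 of 7, and the mesothelial (10), erythrocyte and platelet (5) and glial (4) lists gave 0 in both directions, though 4 mesothelial genes were higher at that p without PNX replicate 2.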

How the data were processed

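The deposited values were log2 signals of 12 arrays, made with RMA per the submitters' processing notes, a method that corrects background, equalises quantiles and summarises probes. The version used is not given in the sources used here. Array medians were 5.06 to 5.13, and the number of arrays limits the precision. Of 45141 probe sets 104 controls were left out, 28898 named 1 gene, 551 several and 15588 none. The probe set with the highest mean stood for each of 17097 genes, and 11073 genes exceeded log2 5.101 on at least 2 arrays. RMA's quantile step assumes like distributions and would mask a shift of most genes.

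One mean per group was fitted over all 12 arrays with limma 3.58.1 under R 4.3.3. It had 6 residual and, from the other genes, 3.31 prior degrees of freedom. Benjamini-Hochberg adjustment ran over all genes. The script was first tested on simulated data. The median standard error was 0.20 and the median width of the 95% interval 0.88 log2.

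The comparison, the 38 gene lists and the genes always named were chosen with earlier results of these data known. Genes named are those past the threshold, the 20 largest differences in each direction at an unadjusted p below 0.01 with arrays apart (predicted genes left out), per list up to 4 members with the smallest p and 2 with the highest level, and 16 always. Where another gene is named the text says so. Alternatives comprised other filters, normalization, probe sets, variance models, arrays and blocks. List counts without each of the 4 arrays were added after seeing the data. Promoter windows came from RefSeq (GRCm38.p6). Values with the word held have every signal below log2 5.101 set to it.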

Additional observations from a re-analysis of the deposited data

Results flagged for a closer look

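For 10 of the genes named, both bright PNX arrays lay on one side of both bright SHAM arrays and both dim PNX arrays on the other side of both dim SHAM arrays. The value given is the PNX effect in bright cells minus that in dim cells, from limma, and none of the 10 passed after adjustment over all genes (adjusted p from 0.172 to 0.998). Entpd2, an ectonucleotidase, had -1.60 (± 0.22 SE, adjusted p = 0.172), from -0.65 in bright and 0.95 in dim cells. Scube1 had -2.04 (± 0.39 SE), from 7.53 and 6.77 on bright SHAM and 5.34 and 5.39 on bright PNX, against 6.58 and 6.51 on dim SHAM and 6.82 and 6.78 on dim PNX. Cdh13 had -1.94, from -1.29 in bright cells, where most of the difference lay below the filter, and 0.65 in dim cells. Vwf had -1.05. Among the genes with a larger effect in bright cells, Birc5 had 1.67, from 0.61 in bright and -1.06 in dim cells, and E2f8, an E2F family repressor, had 0.83. Elovl6, a fatty acid elongase, had 1.03. The matricellular genes Ccn5 and Ccn3 had 1.45 and 1.15, from 0.87 and 0.80 in bright and -0.58 and -0.35 in dim cells, and all dim signals of Ccn3 lay below log2 5.10. Gabra3, a GABA receptor subunit, had 1.53, with dim signals of 3.32 to 3.53.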

How the results depend on the processing

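The count of 1 gene called, Cthrc1, was 1 with no filter, a stricter filter, another quantile normalization, the mean of probe sets and a variance trend. It was 2 (Cthrc1 and Postn) with low values held at the filter and 0 with only the 4 arrays compared or the 6 bright arrays. Leaving out 1 array gave counts of 0 to 14. Without PNX replicate 2 the 14 were Cthrc1, Tnfrsf11b, Cxcl1, Calcb and 9 others higher and Ralgps2 lower, and without SHAM replicate 1 the 2 were the airway genes Bpifb1 and Scgb3a1. Cthrc1 was 2.71 with adjusted p = 0.44 and 0.29 in the fits of 4 and 6 arrays, and 2.51 to 2.91 with 1 array left out. The genes at an unadjusted p below 0.05, 912 in the fit reported, were 438 without SHAM replicate 2. The count for the difference between bright and dim effects, 0, was 1 (Mpzl2) with the mean of probe sets and 0 to 1 with 1 array left out. Same-numbered bright PNX and SHAM arrays had deviations with r = 0.288, and the labels do not say that numbers pair samples. With the replicate block 1 gene was called, Cthrc1 (2.71, adjusted p = 0.035), and 953 genes had an unadjusted p below 0.05. Of 2697 values of 124 other named genes 5 came past the threshold (Postn, Tnfrsf11b and Ralgps2) and 1 reversed, Col3a1, which was -0.018 without PNX replicate 1 and up to 0.19 with another array left out. Of 835 list medians under the alternatives 28 moved by 0.2 log2 or more. Signals below log2 5.10 have no reliable order, which limits the folds of Cthrc1, Tnfrsf11b, Fbn2, Pappa2 and Cdh13.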
